A study of Mus musculus with 6 samples.

Results

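Interferon-stimulated genes are switched on when a cell senses interferon. The 9 described here are Isg15, Ifit1, Ifit2, Ifit3, Rsad2, Usp18, Irf7, Irf1 and Stat2, antiviral effectors, their feedback regulator and the transcription factors of the response. They were taken from the deposited table of read counts by their symbols, as 9 of the 34590 genes listed there, and all 9 were found. The libraries came from 3 host mice, numbered 1 to 3. In each host a fat pad cleared of its own epithelium (gland number 4) was engrafted on the left with WT.EGFP+ mammary epithelium and on the right with Adamts18-/-.EGFP+ epithelium. There were thus 3 glands of each genotype, called WT and KO here. All grafts carried an EGFP transgene driven by the chicken beta-actin promoter, so its presence did not differ between the groups. The Adamts18-/- and EGFP lines were kept on a C57BL/6JOlaHsd background. The genotype, strain and age of the hosts of these 3 pairs are not given in the sources used here. Every WT graft was on the left, so genotype and body side cannot be told apart.

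Interferons of type I (alpha and beta) and type III (lambda) signal through the kinases JAK1 and TYK2 to a complex that holds STAT2 and IRF9 and binds a DNA motif called the interferon-stimulated response element. Interferon gamma, made mainly by T and NK cells, signals through JAK1 and JAK2 and acts at another motif, the gamma-activated site. In the mammary gland both epithelial cells and the leukocytes around the ducts can respond to interferons.

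The targeted gene was lower in the KO gland of each host. Adamts18, a secreted metalloproteinase, had 252, 608 and 383 counts in the WT gland of mouse 1, mouse 2 and mouse 3, and 144, 295 and 202 counts in their KO glands. Values of single glands are given below in this order of the hosts. Its log2 fold change (KO over WT) was -0.83 (SE 0.19, unadjusted p = 0.00922, edgeR with the mouse as a block). Total counts ran from 53875123 to 71595924 per library, and levels are given as CPM (counts relative to the normalized library size). A count of 0 allows up to 3 counts, or 0.0430 to 0.0574 CPM. That floor covers counting error only. The labels describe sorted GFP+ epithelial cells and the text of the study describes profiled glands. Markers of other cells were abundant. The summed level of the adipocyte list, led by Cfd and Fabp4, was 18628, 18524 and 10024 CPM in the WT glands and 16116, 19228 and 7782 CPM in the KO glands. The fibroblast list, led by Col3a1 and Dcn, summed to 8966 to 12310 CPM, against 1758 to 2926 CPM for the epithelial list, led by Krt19 and Krt18. In such mixed RNA, fewer cells of a type and less RNA per cell cannot be told apart.

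The motifs through which interferons act are shown first, because they split the 9 genes in a way that can be set beside their values. Promoter sequences were those of RefSeq for GRCm38.p6, which held 8 of the 9 genes; Usp18 was not among them. The 250 bases before each start site were searched on both strands for 2 motifs. The first was the core of the response element (GAAA, any 2 bases, then GAAA, which on the other strand reads TTTC, 2 bases, TTTC). The second was the gamma-activated site (TTCNNNGAA). The core was found in 2.98% of all 32851 promoters and in those of 5 of these genes, and the gamma-activated site in 7.02% of all promoters and in those of 2. No match of one motif overlapped a match of the other. The genes with the response element core are shown with it in capitals, each as a stretch of its promoter read along the strand of the gene.
Isg15 (chr4:156200860-156200911, minus strand): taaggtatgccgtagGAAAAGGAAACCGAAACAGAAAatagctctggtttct
Ifit1 (chr19:34640770-34640828, plus strand): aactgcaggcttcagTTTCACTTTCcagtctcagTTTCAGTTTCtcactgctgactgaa
Ifit3 (chr19:34583358-34583431, plus strand): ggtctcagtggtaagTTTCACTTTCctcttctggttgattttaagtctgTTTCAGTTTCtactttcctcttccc
Rsad2 (chr12:26456548-26456587, minus strand): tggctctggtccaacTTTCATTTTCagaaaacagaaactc
Stat2 (chr10:128270261-128270300, plus strand): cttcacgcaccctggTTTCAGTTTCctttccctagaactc

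Isg15 held 3 overlapping matches, Ifit1 and Ifit3 held 2 each, and Rsad2 and Stat2 held 1 each. The other pair of genes with a match held the gamma-activated site, again in capitals.
Irf1 (chr11:53769909-53769947, plus strand): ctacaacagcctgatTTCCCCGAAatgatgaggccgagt
Ifit2 (chr19:34550444-34550476, plus strand): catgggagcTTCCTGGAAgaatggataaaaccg

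In the searched window of Irf7 neither string of letters was present. A match describes the letters only and does not show that a factor binds there. The 3 Ifit genes lie together on chromosome 19 of GRCm38, Ifit2 at 34550694-34576419, Ifit3 at 34583531-34588731 and Ifit1 at 34640871-34650009, all on the plus strand. Ifit3 has a near-identical neighbouring copy, so its counts are uncertain where reads could have come from either.

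The effectors were measured at moderate levels. Isg15, a ubiquitin-like protein that is attached to other proteins, was at 8.04, 5.64 and 10.1 CPM in the WT glands, and at 10.0006, 6.65 and 10.7 CPM in the KO glands. It was highest in both glands of mouse 3 and lowest in both glands of mouse 2, and the KO gland was the higher one in each host. Usp18, the protease that removes Isg15 from proteins and restrains the type I receptor, was at 12.4, 9.20 and 17.8 CPM in the WT glands and 14.4, 8.84 and 21.9 CPM in the KO glands. Its order of hosts was that of Isg15, with overlapping genotypes.

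The Ifit proteins bind viral RNA and block its translation. Ifit1 was at 18.3, 12.3 and 15.5 CPM in the WT glands and 23.4, 12.5 and 13.6 CPM in the KO glands. Ifit3, a partner of Ifit1, was at 22.9, 16.2 and 19.4 CPM in the WT glands and 25.6, 19.6 and 19.6 CPM in the KO glands. Both genes were highest in mouse 1, in which neither Isg15 nor Usp18 peaked. Ifit2 was at 25.1, 25.1 and 28.0 CPM in the WT glands and 27.6, 20.9 and 28.8 CPM in the KO glands. Rsad2 (viperin), a radical enzyme that makes a chain-terminating nucleotide, was at 13.0, 13.7 and 13.7 CPM in the WT glands and 15.6, 15.02 and 11.8 CPM in the KO glands. Neither of these genes parted the genotypes, and the WT values of Rsad2 were the most even of all the groups, with a mean of 13.4 CPM ± 0.411 (SD, n = 3).

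Among the transcription factors, Irf1, which is induced by interferon gamma and drives its secondary targets, was at 96.4, 87.0 and 167.8 CPM in the WT glands and 89.1, 75.8 and 193 CPM in the KO glands. Stat2, a subunit of the complex that binds the response element, was at 76.6, 72.9 and 114.0 CPM in the WT glands and 75.0, 63.1 and 116.8 CPM in the KO glands. For both genes the glands of mouse 3 stood above the other 4, whichever graft they carried. Irf7, which amplifies the production of interferon alpha, was at 48.8, 42.4 and 54.3 CPM in the WT glands and 51.3, 51.9 and 57.8 CPM in the KO glands. The KO gland was the higher one in each host, with less spread among hosts than for Irf1.

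**Figure D1:**
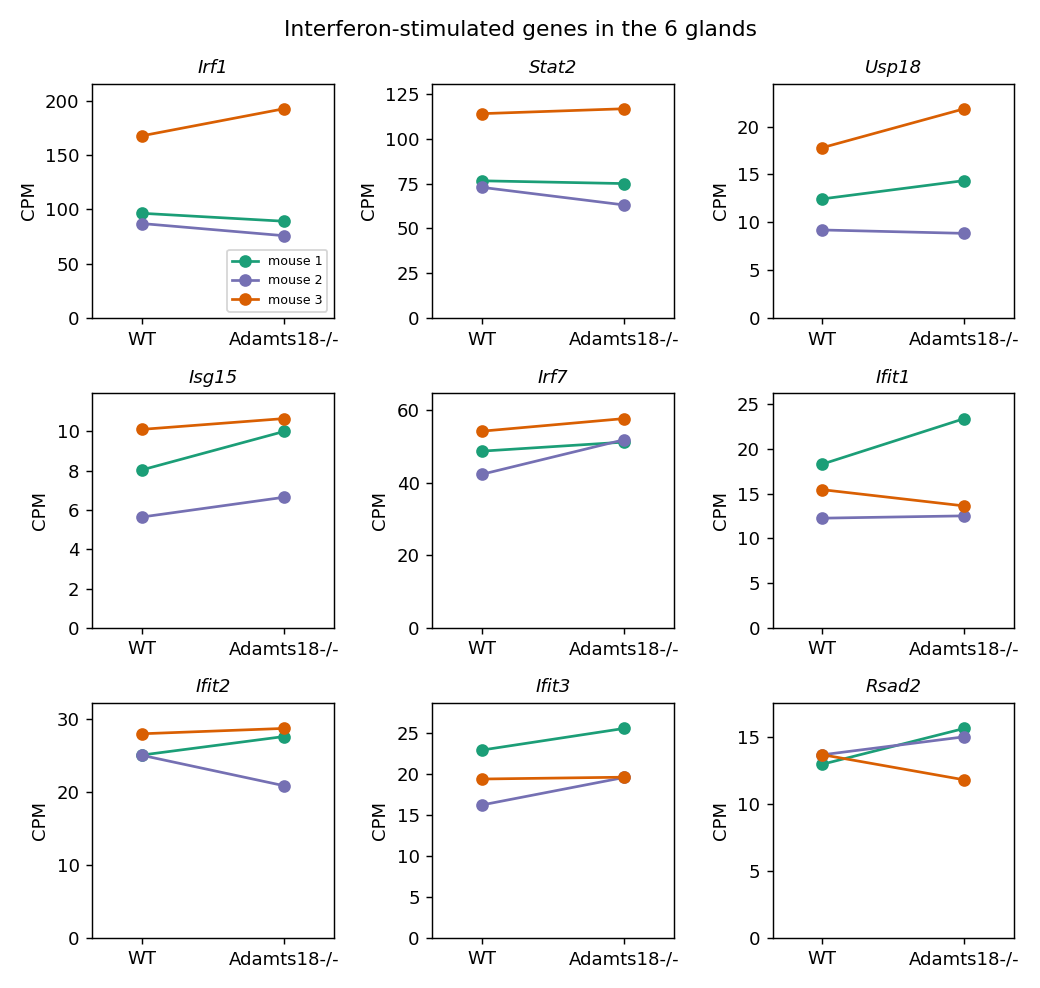
CPM (vertical axes, from 0) of the 9 interferon-stimulated genes in each gland, with 1 panel per gene, the glands of 1 host joined by a line and WT on the left of each panel. Irf1, Stat2, Usp18, Isg15, Irf7 and Ifit2 were highest in the glands of mouse 3, and no gene parted the 3 WT from the 3 KO glands.

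The first comparison asked whether loss of Adamts18 in the engrafted epithelium changed these genes. None of the 9 passed the thresholds of the study, an unadjusted p under 0.05 together with a fold change below 0.8 or above its inverse, which 1.84% of the 17345 tested genes passed as lower in KO and 1.17% as higher. The number at an unadjusted p under 0.05 alone was also 0 of 9, against 3.86% of all tested genes, and the adjusted p of edgeR's quasi-likelihood test lay between 0.987 and 0.991. DESeq2 and limma-voom called 0 of 9 as well. All 9 genes passed the filter on low counts. Their log2 fold changes ran from -0.068 to 0.21, with a median of 0.069 against 0.00065 over all tested genes. The WT and KO values overlapped for all 9.

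The largest differences were those of Isg15, with a log2 fold change of 0.21 (SE 0.12, unadjusted p = 0.149 by edgeR, 95% interval -0.11 to 0.53), and of Irf7, with 0.15 (SE 0.080, unadjusted p = 0.122, interval -0.059 to 0.36). Ifit3 and Usp18 were at 0.15 each, with unadjusted p of 0.172 and 0.253. Isg15, Irf7 and Ifit3 were higher in the KO gland of all 3 hosts. A common direction in all 3 hosts, up or down, was found in 3 of the 9 and in 23.4% of all tested genes. The KO gland was the higher one for 7 of the 9 genes in mouse 1, 5 in mouse 2 and 7 in mouse 3.

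The intervals say what these 3 pairs could resolve. They were made for the main edgeR fit alone. For Irf1 (-0.30 to 0.23), Stat2 (-0.27 to 0.14) and Ifit2 (-0.31 to 0.25) the interval of the log2 difference lay within the fold change thresholds, 0.8 and its inverse. This does not hold for every setting. Without the mouse as a block the SE was 0.43 for Irf1, 0.29 for Stat2 and 0.15 for Ifit2. With scaling to the epithelial list, described below, their log2 fold changes were 0.41, 0.38 and 0.42, above the threshold for an increase. For the other 6 the upper end lay above the threshold for an increase, reaching 1.44-fold for Isg15, so that a rise up to that size lay within the interval. On the lower side the intervals ended at 0.807-fold, within the threshold for a decrease.

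**Figure D2:**
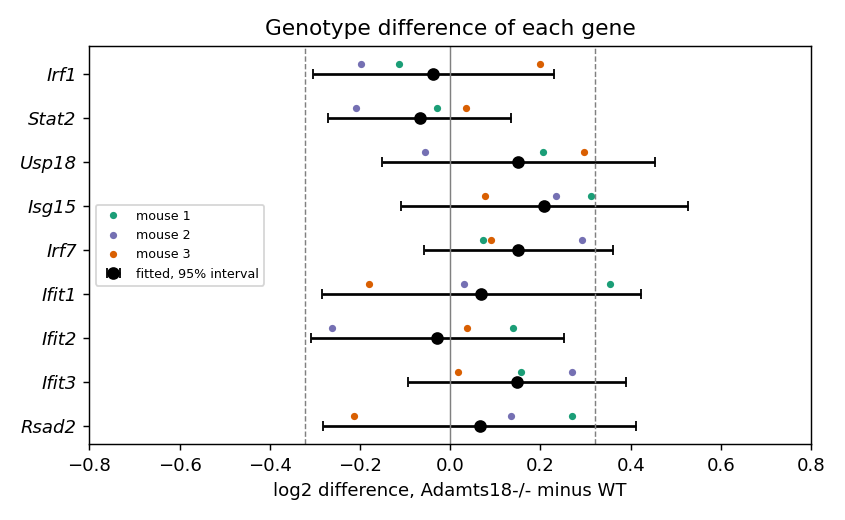
Log2 fold change (KO over WT, horizontal axis) of the 9 interferon-stimulated genes from the edgeR fit with the mouse as a block, with 95% intervals as lines, the differences within each host as small coloured points and the fold change thresholds as dashed lines. Every interval included 0, and those of Irf1, Stat2 and Ifit2 lay within the thresholds of the study.

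These values depended on what the libraries were scaled to. The pan-epithelial list was lower in KO, with 11 of its 24 genes past the thresholds and a median log2 fold change of -0.41. Its summed level was 2133, 2842 and 2926 CPM in the WT glands against 1996, 1758 and 1988 CPM in the KO glands. When the libraries were scaled to that list, the median of all genes moved by 0.45 on the log2 scale. Isg15, at 0.66, and Ifit3, Irf7 and Usp18, at 0.60 each, then passed the thresholds as higher, as did 18.6% of all tested genes. Relative to the shift of all genes, the values of the 9 were near those of the usual scaling. Skeletal muscle markers (Myh4, Acta1 and others) differed the other way, with a summed level of 290, 806 and 2593 CPM in the WT glands and 10160, 9946 and 1736 CPM in the KO glands. Their median log2 fold change was 2.97, with 0 of 8 past the thresholds. The part of either list in the values of the 9 genes was not tested. Which cells held the transcripts cannot be told from these libraries.

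The mice differed more than the genotypes did. Per the study, the 3 pairs came from 3 experiments with different donors, so that host, donor and experiment cannot be told apart here, and a difference between hosts below means one between these pairs. The mouse took 97.0% of the variance of log2 CPM for Irf1, 96.6% for Stat2, 94.996% for Usp18, 88.5% for Isg15, 87.8% for Ifit1 and 80.7% for Ifit3. It took less for Ifit2 (68.9%), Irf7 (57.5%) and Rsad2 (35.7%), against a median of 67.3% over all tested genes. The genotype took between 0.136% and 29.6% over the 9 genes, with a median of 2.48%, against a median of 5.98% over all tested genes. The mouse has more levels than the genotype, so its share tends to be the larger even without any effect. A joint test of the hosts in the same edgeR fit gave an unadjusted p under 0.05 for 6 of the 9 (Irf1, Stat2, Usp18, Isg15, Ifit1 and Ifit3), against 27.2% of all tested genes. After adjustment it called 0 of the 9 and 0.628% of all tested genes. The smallest adjusted values lay just above the threshold, at 0.0565 for Irf1, 0.0586 for Stat2 and 0.0602 for Usp18. Under DESeq2 the same test called 5 of the 9, and 19.2% of all tested genes.

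In which host a gene was highest differed among the 9. Mouse 3 was singled out after the values were seen, so its contrast is a description. Both of its glands lay above the other 4 for Irf1, Stat2, Usp18, Isg15, Irf7 and Ifit2, thus 6 of 9, against 24.2% of all tested genes. Some of these gaps were small. The WT gland of mouse 3 and the KO gland of mouse 1 were at 10.1 and 10.0006 CPM for Isg15. For Ifit2 they were at 28.0 and 27.6 CPM. The mean CPM in mouse 3 was 2.07 times that of mice 1 and 2 for Irf1, 1.77 times for Usp18, 1.61 times for Stat2, 1.37 times for Isg15 and 1.15 times each for Irf7 and Ifit2. For Ifit3, Rsad2 and Ifit1 the ratios were 0.925, 0.889 and 0.875.

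The correlations of log2 CPM over the 6 libraries, which share hosts and are given as a description, followed this split in part. Irf1 went with Stat2 (Pearson r = 0.99) and Usp18 (r = 0.91), Isg15 with Usp18 (r = 0.93), and Ifit1 with Ifit3 (r = 0.92). Irf1 did not go with Ifit1 (r = -0.10) and ran against Rsad2 (r = -0.71). Isg15, however, also went with Ifit3 (r = 0.57) and Ifit1 (r = 0.54), more than Ifit2 did with Irf7 (r = 0.35), and Rsad2 was only weakly like Ifit1 (r = 0.36) and Ifit3 (r = 0.33). Over the 36 pairs of genes the median r was 0.39, and 10 pairs were negative. Set beside the promoters, genes with the response element core were found on both sides of the split, Stat2 and Isg15 among those high in mouse 3 and Ifit1, Ifit3 and Rsad2 among the rest. The genes with a gamma-activated site, Irf1 and Ifit2, both belonged to the former, Ifit2 by a small gap. That group held 6 of the 9 genes, Irf7 with no match among them, so little can be read from this. Irf1 and Ifit2 each also had a further promoter in the set without the site.

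Levels were compared between genes per kilobase of annotated exon (GENCODE M21). Irf1 was the most abundant, at 29.4 CPM per kb ± 11.1 (SD, n = 3) in WT and 30.0 CPM per kb in KO. Stat2 (14.8 ± 3.84 CPM per kb in WT), Irf7 (12.8 ± 1.58), Ifit3 (11.2 ± 1.92) and Isg15 (10.5 ± 2.95) came next. Irf1 was above Stat2 in every library. From Stat2 to Isg15 the spread of neighbours overlapped, and their order changed between libraries. Ifit2 (6.64 ± 0.433 CPM per kb), Ifit1 (5.78 ± 1.14) and Usp18 (4.71 ± 1.56) followed, again in an order that changed between libraries. Isg15 was above Ifit2 in every library. Rsad2 had the lowest mean, at 3.10 ± 0.0949 CPM per kb. In KO the means stood in the same order. The exon length joins all annotated transcripts of a gene, which understates the level of a gene with many of them.

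Of the wider family, 46 further effector genes of the type I response were tested, and 0 passed the thresholds in either direction, with a median log2 fold change of 0.028. By edgeR the smallest unadjusted p was that of Mx1, a GTPase that blocks viral replication (log2 fold change 0.44, unadjusted p = 0.0899). Bst2, which tethers budding viruses (0.19, unadjusted p = 0.0974), and Trim30a (0.19, unadjusted p = 0.102) came next by edgeR. Between hosts 0 of the 46 passed after adjustment and 32 did at an unadjusted p under 0.05, against 27.2% of all tested genes. Both glands of mouse 3 were above the other 4 for 29 of them and below for 7, against 24.2% and 24.1% of all tested genes. Dtx3l and Uba7, the activating enzyme for Isg15, were 1.73 and 1.66 times as high in mouse 3, and Ifi27l2a was at 0.412 times.

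Genes that respond chiefly to interferon gamma differed between hosts. Of 21 such genes, 13 passed the host test at an adjusted p under 0.05 (edgeR), against 0.628% of all tested genes, and all 21 were higher in both glands of mouse 3 than in the other 4. The chemokine Cxcl10, which attracts T cells, was at 4.14, 3.15 and 20.8 CPM in the WT glands and 5.09, 3.43 and 22.05 CPM in the KO glands, 5.42 times as high in mouse 3 (host adjusted p = 0.0229). The immunity-related GTPase Igtp was at 43.0, 53.4 and 150 CPM in the WT glands and 47.0, 43.6 and 157 CPM in the KO glands, 3.28 times as high (host adjusted p = 0.0417). For Gbp6, a guanylate-binding protein, the values were 21.2, 20.3 and 50.7 CPM in the WT glands and 23.2, 19.5 and 55.5 CPM in the KO glands, 2.52 times as high (host adjusted p = 0.0400). The contralateral glands of each host were close for all 3 genes. Gbp2, Gbp3, Gbp5, Iigp1, Irgm1, Irgm2, Gm4951, Cxcl9, Nlrc5 and Cd274 were the others past the test, and the 13 were 2.13 to 5.42 times as high in mouse 3, with a median of 2.52. With any 1 of the 3 mice left out the count of 13 fell to 0 and that over all tested genes from 109 to between 12 and 48. Without the WT gland of mouse 3 these counts were 20 and 4058.

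**Figure D3:**
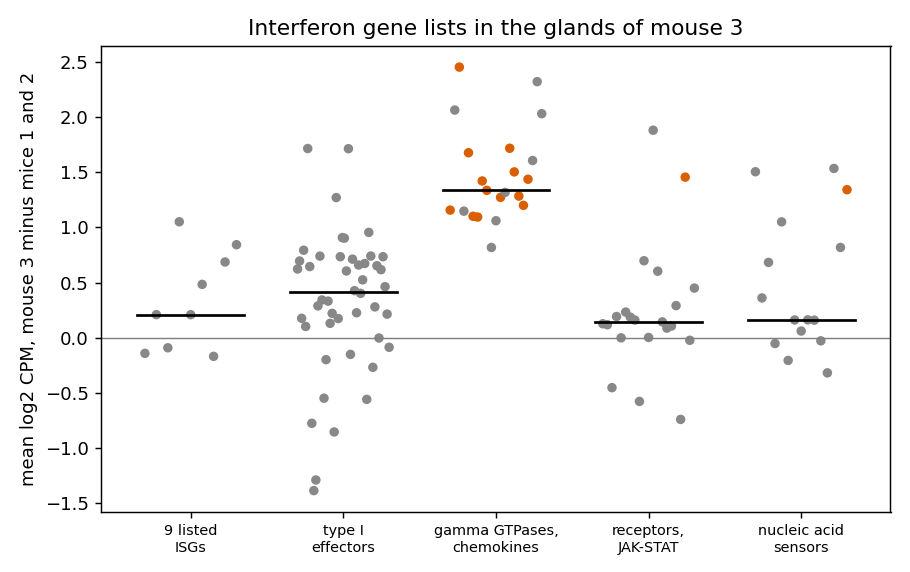
Mean log2 CPM in mouse 3 minus that in mice 1 and 2 (vertical axis, 1 point per gene, horizontal bars at the medians) for the 9 interferon-stimulated genes and the wider interferon lists, with genes past the host test in orange. The genes that respond to interferon gamma all lay above 0, with a median of 1.34, against 0.21 for the 9 genes, 0.41 for the type I effectors and 0.0028 over all tested genes.

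Past the thresholds between genotypes this list held Ido1, an enzyme that degrades tryptophan, with a log2 fold change of -1.14 (SE 0.23, unadjusted p = 0.00508, adjusted p = 0.987 by edgeR). It was at 33.8, 43.9 and 68.7 CPM in the WT glands and 13.2, 14.8 and 48.7 CPM in the KO glands. The KO gland was the lower one in each host, although the KO gland of mouse 3 lay above the WT glands of mice 1 and 2. The call was lost without the mouse as a block (unadjusted p = 0.1595 by edgeR). By DESeq2 the adjusted p was 0.00112, and without mouse 3 edgeR gave an adjusted p of 0.00562. Iigp1 was lower in KO by 0.27 on the log2 scale (unadjusted p = 0.0420), at 0.831-fold, which did not reach the fold change threshold. For Cxcl10 the log2 fold change was 0.17 (unadjusted p = 0.213 by edgeR).

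Among the receptors and signalling proteins, 0 of 21 passed the thresholds as higher in KO. Il28ra, the specific chain of the lambda receptor and found largely on epithelium, passed them as lower, at 14.5, 20.4 and 20.9 CPM in the WT glands and 11.3, 11.9 and 13.2 CPM in the KO glands (log2 fold change -0.60, SE 0.12, unadjusted p = 0.00510, edgeR). The epithelial list was lower in KO as well, as given above. With the libraries scaled to that list the edgeR log2 fold change of Il28ra was -0.15 (unadjusted p = 0.597). Ifngr2, a chain of the gamma receptor, also had a small p (log2 fold change 0.21, unadjusted p = 0.0390 by edgeR) and did not reach the fold change threshold.

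Of the same list, the transcription factors Irf9 and Irf8 were 1.51 and 3.95 times as high in mouse 3, with host adjusted p of 0.0687 and 0.0727. Of 15 sensors of foreign nucleic acid, 0 passed the thresholds between genotypes, and Zbp1, which binds Z-form nucleic acid, passed the host test (adjusted p = 0.0484). It was at 21.4, 18.5 and 50.2 CPM in the WT glands and 25.9, 16.4 and 52.6 CPM in the KO glands. Dhx58 and Tlr9 were 1.58 and 2.96 times as high in mouse 3, with host adjusted p of 0.0592 and 0.0833. Between genotypes the smallest unadjusted p values among the sensors by edgeR were those of Dhx58 (log2 fold change 0.17, unadjusted p = 0.135), Ikbke (0.28, unadjusted p = 0.203) and Aim2 (0.37, unadjusted p = 0.224).

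The interferons themselves were nearly undetected, apart from Ifng. Of 18 ligands in the table, Ifng alone passed the filter, with 17, 29 and 68 counts in the WT glands and 11, 9 and 87 counts in the KO glands. It was 4.88 times as high in mouse 3 as in the other hosts (host unadjusted p = 0.00804, adjusted p = 0.0883), and its log2 fold change between genotypes was -0.43 (unadjusted p = 0.362, edgeR). Of the other 17 ligands, 11 had 0 counts in all libraries, and the remaining 6 had 11 counts in all and at most 2 in any library. Transcripts of type I and type III interferons were thus not detectable beyond the floor at this depth.

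Markers of lymphocytes moved with the host differences, and their part in them was not tested. The T and NK cell list, led by Lck and Cd4, summed to 40.4, 81.7 and 203 CPM in the WT glands and 36.3, 54.2 and 533 CPM in the KO glands, and 10 of its 10 genes were higher in both glands of mouse 3. The B and plasma cell list, led by Igj and Cd79a, summed to 210, 499 and 1763 CPM in the WT glands and 229, 341 and 2329 CPM in the KO glands, with 6 of 6 genes higher in mouse 3. The macrophage list, led by Lyz2 and Csf1r, did not follow: it summed to 2950, 1812 and 2713 CPM in the WT glands and 3109, 2083 and 2648 CPM in the KO glands, with 1 of its 11 genes higher in both glands of mouse 3. Over all tested genes, 24.2% were higher in both glands of mouse 3. None of these lists held a gene at 0 in all libraries.

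Within mouse 3 the glands differed more in the sum of T cell markers than in the sums of the interferon genes. The KO gland held 2.62 times the WT level of the T and NK cell list and 2.25 times that of the list of pan-leukocyte genes (Laptm5, Lcp1 and others). For the B and plasma cell list it held 1.32 times. Most of that last sum was Igj, with 1647 CPM in the WT gland and 1789 CPM in the KO gland. Igj was thus at 1.09 times, whereas Cd79a was at 4.16 times. The summed level of the 9 interferon-stimulated genes was 1.07 times and that of the interferon gamma genes 1.06 times the WT level. These sums do not stand for each gene. Single genes ran from 0.863 times (Rsad2) to 1.23 times (Usp18) among the 9. Among the interferon gamma genes they ran from 0.708 times (Ido1) to 1.94 times (Ciita). The range of the type I effectors was 0.550 times (Ifi205) to 3.11 times (Epsti1). Sums were also set against the mean of the 4 glands of mice 1 and 2. That of the 9 genes stood at 1.45 times in the WT gland and 1.56 times in the KO gland. It was led by Irf1 and Stat2. Single genes ran from 0.875 times (Ifit1) to 2.07 times (Irf1) in the mean of mouse 3. The interferon gamma genes stood at 2.48 and 2.64 times. The T and NK cell list stood at 3.83 and 10.03 times. The plasmacytoid dendritic cell list, led by Tcf4 and Ly6d and named for cells that make interferon alpha, stood at 1.45 and 2.07 times. That sum does not stand for each of its genes either. Of the 8 genes, 6 were higher in both glands of mouse 3 than in the other 4, and 1 was lower. Over all tested genes these shares were 24.2% and 24.1%. Among the 6 were Bst2 (1.61 times) and Irf8 (3.95 times), which also belong to the wider interferon lists above, so the lists are not independent. The lower one was Tcf4, at 134 CPM (WT) and 125 CPM (KO) in mouse 3. The mean of Tcf4 in mice 1 and 2 was 161 CPM. Whether mouse 3 held more of these cells was not tested.

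**Figure D4:**
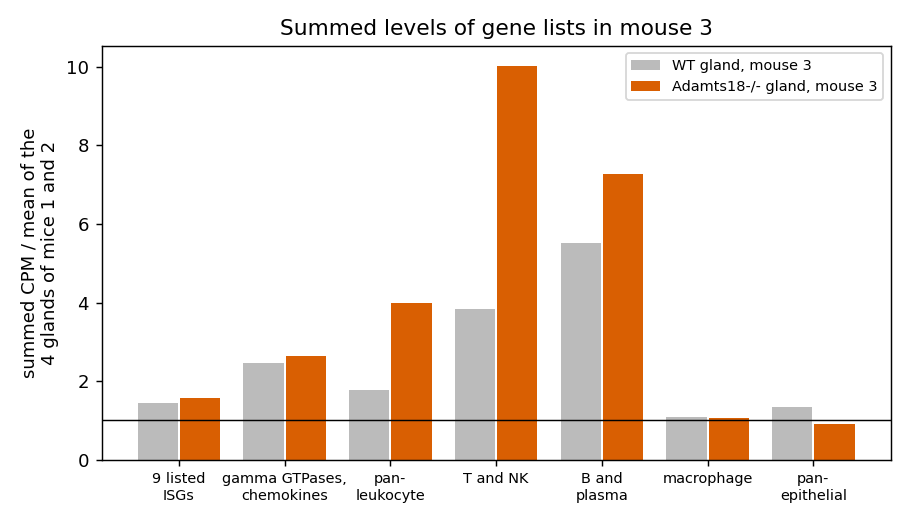
Bars give the summed CPM in the WT (grey) and KO (orange) gland of mouse 3 divided by the mean of the 4 glands of mice 1 and 2 (vertical axis, from 0), for the 9 interferon-stimulated genes, the interferon gamma genes, the leukocyte marker lists and the epithelial list, with a line at 1. The WT and KO gland lay close together for the sums of the interferon genes (1.45 and 1.56, 2.48 and 2.64). They lay apart for the sum of the T and NK cell markers (3.83 and 10.03).

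The genes whose pattern over the 6 libraries was most like that of the 9, by the Pearson correlation with their mean standardized log2 CPM, were 2810422J05Rik (r = 0.993), Commd9 (r = 0.990), Srd5a3 (r = 0.987), Clec4a2 (r = 0.985) and Trim30d (r = 0.984). They were picked from all tested genes for this likeness, which is a description of these 6 libraries.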

How the data were processed

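The deposited table gives, for 6 libraries (1 per gland), how many reads the authors counted on each gene symbol, as raw counts in whole numbers. The notes of the submitters name bcl2fastq 2.18, TopHat2 2.0.11, featureCounts 1.6.2, edgeR and the build mm9; whether reads were counted by strand is not given in the sources used here. Coordinates printed are those of GRCm38 and serve only to locate genes. The table held 0 columns of other samples.

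Genotype and mouse number came from the labels, and the pairing from these and the methods of the study (contralateral glands of 1 host). Contralateral glands deviated together from the group means, with correlations of 0.563, 0.582 and 0.690 in mice 1, 2 and 3. Counts of 17345 genes that passed filterByExpr were scaled by TMM and tested in R 4.3.3 with the quasi-likelihood test of edgeR 4.0.16, with terms for genotype and mouse. The genotype term gave the difference between KO and WT, and a joint F test of the mouse terms the difference between hosts. P-values were adjusted by Benjamini-Hochberg over all tested genes. They judge each difference against the spread left among these glands after the terms for genotype and mouse. The common biological coefficient of variation was 20.0%. CPM used the TMM factors, and log2 CPM a prior count of 2. Scripts were tested on simulated data.

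Named were the 9 genes, Adamts18 and, in each wider list, the genes past the thresholds (where fewer than 3, those with the 3 smallest p) and the 3 with the smallest host p, ligands at over 3 counts, the 5 genes most like the 9, and the 2 most abundant of each marker list mentioned. The further interferon gamma genes past the host test and the contrast of mouse 3 with the other hosts were chosen after their values were seen. So were Ciita, Ifi205 and Epsti1, which are named as ends of a range. Some genes that the rule selects are left out of the text but stayed in the fits and counts. The 9 genes and the lists were chosen with earlier results of these data known. Alternatives were DESeq2 1.42.0, voom in limma 3.58.1, other scalings, filters, a fit without the block, and each mouse left out. Omitting 1 gland of mouse 3 was added after seeing the data.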

Additional observations from a re-analysis of the deposited data

How the results depend on the processing

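None of the 9 genes passed the thresholds between genotypes under any alternative except scaling to the epithelial list, under which 4 did (18.6% of all tested genes were higher). Under it the sign of Irf1 (0.41), Stat2 (0.38) and Ifit2 (0.42) changed, but all genes shifted by a median of 0.45 and relative to it these 3 were not higher. Without the mouse as a replicate block Irf1 was at 0.026, with a wide SE of 0.43, and 0 of 9 passed the thresholds. Genes past them over the whole table then numbered 343 in place of 522. That count was 3256 with epithelial scaling, 533 to 867 with 1 mouse left out, 884 without the KO gland of mouse 3 and 906 without its WT gland. With 1 mouse or 1 gland of mouse 3 left out, log2 fold changes ran from -0.077 to 0.20 for Ifit1, -0.11 to 0.088 for Ifit2, -0.16 to 0.043 for Irf1, -0.040 to 0.21 for Rsad2 and -0.12 to 0.0021 for Stat2, so that their sign depended on which mouse was left out.

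Of the 9 genes, 0 passed the host test, but 5 did by DESeq2, 3 without the filter on low counts, 1 (Irf1) without the KO gland of mouse 3 and 4 without its WT gland. With 1 mouse left out the number was 0. In the wider lists 3 genes passed between genotypes, 30 with epithelial scaling, 4 to 7 with 1 mouse left out, 6 without the KO gland of mouse 3 and 5 without its WT gland. Between hosts 15 passed, 64 by DESeq2, 9 with library size scaling, 32 with epithelial scaling, 35 without the filter, 0 with any 1 mouse left out, 24 without the KO gland and 62 without the WT gland of mouse 3. Over all tested genes the host calls moved as well, from 109 to 3326 by DESeq2, 89 with library size scaling, 1935 with epithelial scaling, 1106 without the filter, 12 to 48 with 1 mouse left out, and 682 and 4058 without the KO or the WT gland of mouse 3. For the interferon gamma genes the 13 calls became 20 by DESeq2, 8 with library size scaling, 0 with any mouse left out, and 18 and 20 without the KO or the WT gland of mouse 3. The fit without the block has no host term. Leaving out a mouse also leaves fewer glands; the cause of the other moves was not tested.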
